A study of Rubus idaeus with 6 samples.

Results

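Gene models with no read in any ‘Wakefield’ (BF) library and clear reads in every ‘Heritage’ (AF) library were collected from the RNAseq table of axillary buds of red raspberry (*Rubus idaeus*). The rule asked for a normalized count of 0 in each of the 3 ‘Wakefield’ libraries and of at least 10 in each of the 3 ‘Heritage’ libraries. It was met by 32 of 19951 gene models, or 0.160%. The 32 gene models were thus chosen by the normalized counts of both cultivars, and their levels are given as a description with no test. A normalized count is the number of reads on a gene model divided by a size factor for the library. It is not corrected for gene length, and 1 read was worth 0.743 to 1.56 in the libraries used here.

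The samples are buds of ‘Heritage’, an annual-fruiting cultivar that flowers and fruits on canes of the current season, and of ‘Wakefield’, a biennial-fruiting cultivar whose canes fruit after a winter. Both were grown in the field at a single orchard and sampled on the same spring day, below the shoot tip, as 3 biological replicates each. Whether these came from separate plants is not stated, and p-values here measure the spread between these samples. No transgene, mutation or treatment was involved, and each fruiting habit is represented by 1 cultivar, so that fruiting habit and every other difference between the cultivars cannot be told apart. The reads recovered from the normalized counts were 11334885 to 12704172 per ‘Heritage’ library and 7345603 to 14977596 per ‘Wakefield’ library. Libraries are named by their numbers, 62, 63 and 64 for ‘Heritage’ and 59, 60 and 61 for ‘Wakefield’. In a test with limma over all gene models, 16% were higher in ‘Heritage’ and 17.5% lower at an adjusted p under 0.05 (Benjamini-Hochberg). Of 5 listed markers for green leaf tissue, 4 were lower in ‘Heritage’ and none was higher; they summed to 6887 to 7687 in ‘Heritage’ libraries and to 10001 to 14321 in ‘Wakefield’ libraries, and none of the 5 was at 0. The 5 genes whose names mention pollen or anthers summed to 1318 to 1464 in ‘Heritage’ and to 1500 to 1751 in ‘Wakefield’, with 1 higher and 1 lower. The part of either tissue in the 32 gene models was not tested, and in a bulk bud sample fewer cells of a type and less RNA per cell cannot be told apart. No marker of bud identity was among the lists.

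As background, cultivars of a plant species can differ in whether they carry a gene at all, which is known as presence and absence variation. A gene that both carry can also be silent in one of them because of a change in its promoter or in its chromatin. A count of 0 can also come from the reference. Reads of both red raspberries were aligned to the gene models of black raspberry (*Rubus occidentalis*, ORUS 4115-3 v3.0), and a copy that has diverged too far loses its reads. A count of 0 is the same in each of these cases, and they cannot be told apart here. Gene families that vary in this way in plants often lie in tandem arrays, so that neighbours can vary together.

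The 32 gene models were of low abundance. Their mean in ‘Heritage’ ran from 12.2 to 106 normalized counts with a median of 24.8, which placed them between the 13.5th and the 37.0th percentile of all gene models by ‘Heritage’ mean. The median ‘Heritage’ mean of all 19951 gene models was 215. A mean from 10 to 20 was found in 10 of the 32, from 20 to 40 in 17, from 40 to 100 in 4 and above 100 in 1. Between 38 and 329 reads in total lay behind each gene model. A count of 0 over the 3 ‘Wakefield’ libraries still allows 3 reads, or a mean of 0.982 normalized counts, and against that floor the gene models were at least 12.4-fold to at least 108-fold higher in ‘Heritage’, with a median bound of 25.2-fold. These bounds cover only the counting error of the ‘Wakefield’ count of 0, and take the ‘Heritage’ mean as observed.

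Ro06_G23072 was the most abundant, with 113, 94.5 and 111 normalized counts in ‘Heritage’ libraries 62, 63 and 64 and 0 in each ‘Wakefield’ library. It was at least 108-fold higher in ‘Heritage’. Its mean of 106 ± 10.3 (SD, n = 3) stood above that of Ro07_G09558, which had 84.8, 73.6 and 47.6, and these 2 gene models did not overlap in range. Ro03_G33069 followed with 48.1, 65.4 and 63.8, then Ro05_G31147 with 46.0, 47.2 and 42.9 and Ro06_G15424 with 37.7, 41.8 and 43.8. Ro07_G09558 overlapped in range with Ro03_G33069, and Ro05_G31147 with Ro06_G15424, while Ro03_G33069 lay above Ro05_G31147 in each library. Ro07_G11531 had 29.3, 46.3 and 41.9, Ro06_G07541 had 39.8, 33.6 and 42.9, and Ro01_G27509 had 27.2, 31.8 and 40.9. The other 2 of the 10 with the largest means, Ro07_G25186 and Ro05_G31113, were uneven among the libraries and are described with the spread. The remaining 22 gene models had means of 12.2 to 32.1.

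**Figure D1:**
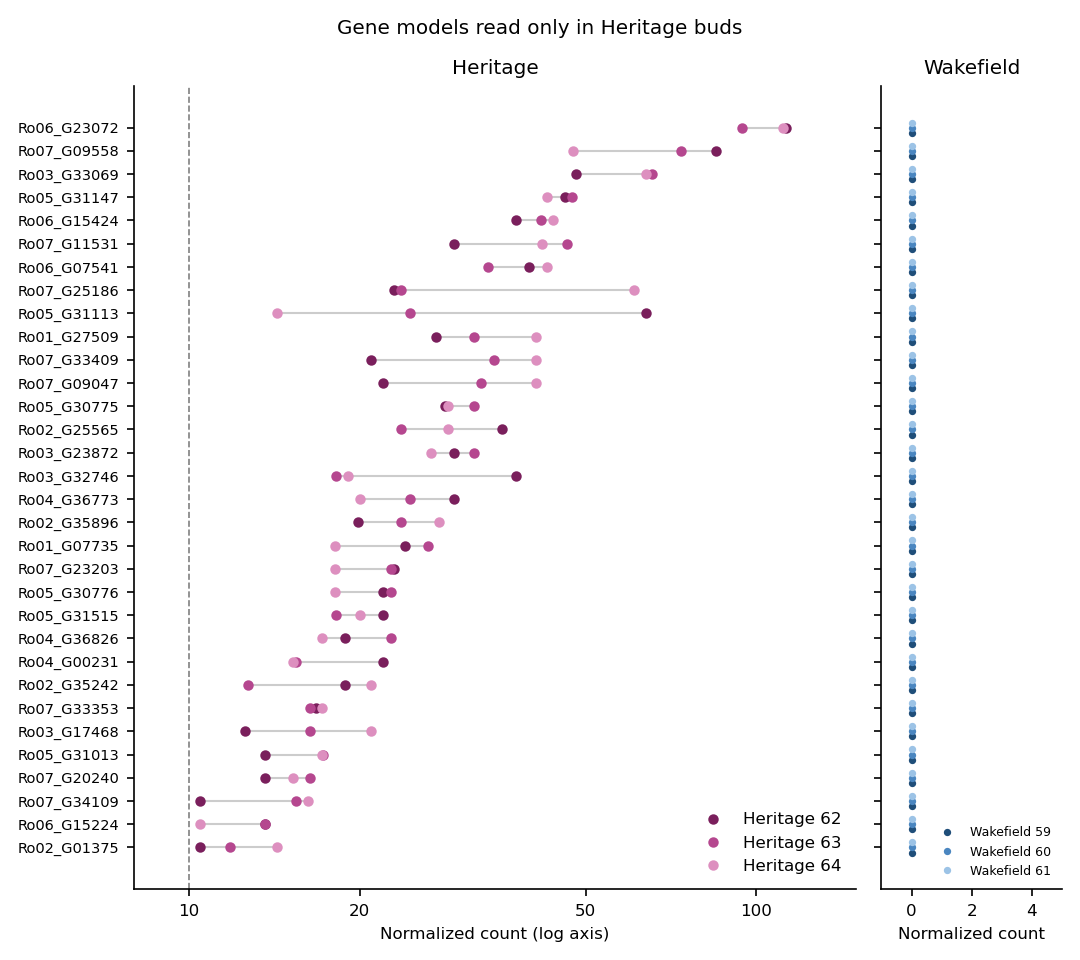
Normalized counts of the 32 gene models in the 3 ‘Heritage’ libraries (left, log axis, dashed line at the minimum of 10) and the 3 ‘Wakefield’ libraries (right, linear axis), ordered by ‘Heritage’ mean; each point is 1 library. The ‘Heritage’ values run from 10.5 to 113, most of them between 10 and 50, and all ‘Wakefield’ values are 0.

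At the edge of the rule, Ro02_G01375 (10.5, 11.8 and 14.3 normalized counts in ‘Heritage’ libraries 62, 63 and 64), Ro07_G34109 (10.5, 15.4 and 16.2) and Ro06_G15224 (13.6, 13.6 and 10.5) lay just inside. Just outside, also with 0 in every ‘Wakefield’ library, were Ro07_G18575 (26.2, 9.99 and 16.2), Ro07_G34094 (24.1, 9.99 and 16.2) and Ro07_G34429 (22.0, 10.9 and 9.52). On the ‘Wakefield’ side, Ro03_G26177 had 256, 309 and 253 in ‘Heritage’ and a single read in library 61, and Ro06_G13110 (98.4, 108 and 78.1) and Ro03_G32814 (81.6, 70.0 and 78.1) also had 1 ‘Wakefield’ read. In all, 26 gene models with at least 10 in each ‘Heritage’ library had 1 ‘Wakefield’ read, 13 had 2 and 10 had 3. The edge at 0 therefore runs through a continuous range of low ‘Wakefield’ counts, and some gene models beyond it were more abundant in ‘Heritage’ than any of the 32. The number depended on the deepest ‘Wakefield’ library: it was 82 without library 61 and 51 without library 59, against 35 without library 60, the shallowest.

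Of the 79 gene models with 0 in all ‘Wakefield’ libraries, the 47 left out had a ‘Heritage’ minimum under 10, and 19 of these had one of at least 5. The same rule with the cultivars exchanged (at least 10 in each ‘Wakefield’ library and 0 in each ‘Heritage’ library) gave 49 gene models, or 76 without library 61, and 145 were at 0 in every ‘Heritage’ library. These 49 had a median mean of 37.6 normalized counts in ‘Wakefield’, with the highest at 425 (Ro05_G26611). The 32 thus reached lower levels than their counterparts in ‘Wakefield’, and no test was made of this.

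The ‘Heritage’ libraries gave similar values for most of the 32. The coefficient of variation (CV, SD over mean, n = 3) had a median of 16.2%, against a median of 18.6% over all 4690 gene models with a ‘Heritage’ mean in the same range. The CV expected from the variance of counting error alone had a median of 19.9% over the 32, and 19 of the 32 fell under their own value. A CV taken from 3 values falls under such an expected value more often than over it. These values therefore do not show a spread below counting error. The requirement of at least 10 in each library leaves out some uneven gene models of this range. The tightest were Ro07_G33353 (16.7, 16.4 and 17.1, CV 2.35%), Ro05_G31147 (CV 5.00%), Ro05_G30775 (28.3, 31.8 and 28.6, CV 6.65%), Ro06_G15424 (CV 7.61%) and Ro03_G23872 (29.3, 31.8 and 26.7, CV 8.78%). Library 62 held the lowest value for 14 gene models, library 63 for 7 and library 64 for 11, so no single library stood below the others throughout.

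The highest value was more than 2 times the lowest in 3 of the 32, or 9.38%, against 15.9% of all gene models in this range. The rule set a minimum in each ‘Heritage’ library for the 32, which limits this ratio, and the comparison set had no such minimum. The lower share therefore does not show that the 32 were more even. Ro05_G31113 had 63.8, 24.5 and 14.3 normalized counts in libraries 62, 63 and 64, a CV of 76.4% and 4.47 times that of counting error. Ro07_G25186 had 23.0, 23.6 and 60.9, with library 64 apart from the other two (CV 60.6%). Ro03_G32746 had 37.7, 18.2 and 19.0, with library 62 apart (CV 44.1%). Ro07_G33409 (20.9, 34.5 and 40.9, CV 31.8%) and Ro07_G09047 (22.0, 32.7 and 40.9, CV 29.8%) were the next most variable, and both were lowest in library 62. The most variable gene models were therefore not all raised in the same library. In ‘Wakefield’, the 49 counterparts had a median CV of 41.0% against 17.6% for all gene models in their range, and 24 of them were highest in library 60.

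**Figure D2:**
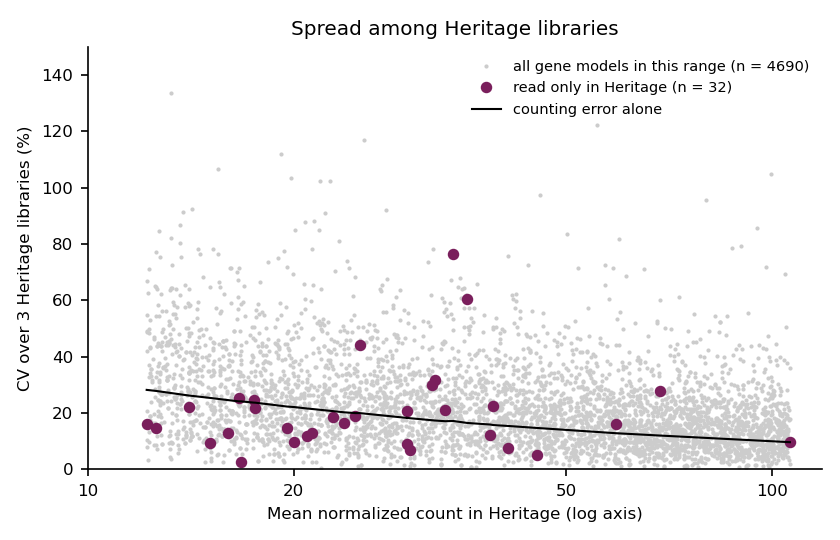
CV over the 3 ‘Heritage’ libraries (%) against the mean normalized count in ‘Heritage’ (log axis) for the 32 gene models (large points) and for all 4690 gene models in the same range (small points). The line is the CV expected from the variance of counting error alone, and a CV from 3 values falls under it more often than over it. Most of the 32 lie near or under the line, and Ro05_G31113 (76.4%) and Ro07_G25186 (60.6%) lie far above it.

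The 32 gene models lay on all 7 chromosomes, which the first digits of the gene model names give. Chromosome 7 held 9 of them, or 3.54 per 1000 of its 2540 gene models, and chromosome 5 held 6 (2.17 per 1000). Chromosomes 2, 3 and 6 held 4 each, chromosome 4 held 3 and chromosome 1 held 2 (0.859 per 1000), against 1.60 per 1000 over the whole table. Of the counterparts read only in ‘Wakefield’, chromosome 7 held 13 of 49 (5.12 per 1000, against 2.46 over the table) and chromosome 1 again the fewest, with 2. No test was made of these shares. With a ‘Heritage’ minimum of 20 in place of 10, 5 of the 14 gene models left were on chromosome 7, and with a minimum of 5, 14 of 51. The LG7 gene models included the second most abundant (Ro07_G09558) and one of the least abundant (Ro07_G34109), with means of 68.7 and 14.0, so they did not share a level.

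**Figure D3:**
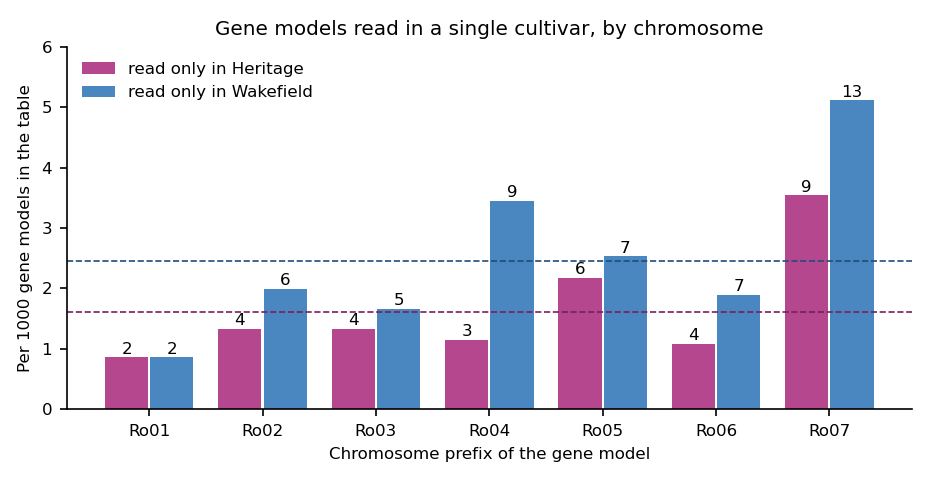
Gene models read only in ‘Heritage’ (left bar of each pair) and only in ‘Wakefield’ (right bar) per 1000 gene models of the table, by chromosome prefix; numbers over the bars are gene models and dashed lines the rates over the whole table (1.60 and 2.46). Both rates are highest on chromosome 7 (3.54 and 5.12).

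Gene models of this reference carry a running number. In the table those numbered from 28006 upwards form a later run, in which the chromosomes hold separate blocks of numbers. It held 15 of the 32 (46.9%), against 19.0% of all gene models and 24.8% of those with a ‘Heritage’ mean in the same range. For the counterparts in ‘Wakefield’ the share was 44.9%. The later run had a lower median level (81.1 normalized counts over the 6 libraries, against 262 in the earlier run). It did not differ in how often an Arabidopsis orthologue was lacking among positioned gene models (10.5% of 314, against 10.7% of 1684). The sources used here do not say what the later run stands for.

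Positions were held for 974 gene models from 35037390 to 43717084 bp of LG3 and for 1024 from 1794 to 7439980 bp of LG4, the regions in which the study mapped *RiAF3* and *RiAF4*. Only 2 of the 32 gene models were among them, and the positions of the other 30 were not analysed here. Within the LG4 region the study used recombinants to place *RiAF4* in a shorter interval, and the LG4 gene model described here, Ro04_G00231, lies outside it. Ro03_G33069 lies at 39352602 bp of LG3 and has no Arabidopsis orthologue in the study's table, as is the case for 213 of the 1998 positioned gene models (10.7%). Ro04_G00231 lies at 2065517 bp of LG4 and is matched to the Arabidopsis locus AT1G14740, which the table lists under heat shock proteins (class I, putative) with a domain of unknown function. In Arabidopsis this locus is also known as TITANIA1 or OBERON3, a PHD-finger protein that acts in meristem formation in the embryo.

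Ro04_G00231 had 22.0, 15.4 and 15.2 normalized counts in ‘Heritage’ libraries 62, 63 and 64 and was at least 17.9-fold higher in ‘Heritage’ than the ‘Wakefield’ floor. Another gene model matched to the same locus, Ro04_G00227, lies 24.3 kb away at 2089804 bp and was read in both cultivars. It had 1569, 1255 and 1208 in ‘Heritage’ and 1084, 1115 and 1137 in ‘Wakefield’. The groups did not overlap, and the log2 fold change (log2FC, ‘Heritage’ minus ‘Wakefield’) of 0.26 (limma, adjusted p = 0.163) did not pass the test. Reads on Ro04_G00231 amounted to 54 in all, and how reads shared between related copies were assigned was not tested.

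The gene models on either side of Ro04_G00231 were read in both cultivars. Ro04_G00229, 4.20 kb away, is matched to an Arabidopsis histidine kinase with a CHASE domain (AT2G01830), the cytokinin receptor AHK4. Its normalized counts were 2246, 2966 and 3370 in ‘Heritage’ and 1686, 2089 and 1784 in ‘Wakefield’, a log2FC of 0.61 (standard error 0.18, limma, adjusted p = 0.0463). This call lay close to the threshold and was lost without any one of libraries 59, 60, 61, 63 and 64 (adjusted p = 0.0643 to 0.141). Ro04_G00233, 9.07 kb away on the other side and matched to the receptor kinase TMK1, had a mean of 46.3 ± 11.1 in ‘Heritage’, against 68.5 ± 21.6 in ‘Wakefield’ (SD, n = 3 each; limma, adjusted p = 0.168). Ro04_G36136 (mean 11.6 in ‘Heritage’ and 11.3 in ‘Wakefield’) and the zinc finger gene model Ro04_G00228 (862 and 718, limma, adjusted p = 0.0712) completed the 2 nearest on each side. A step between reads and no reads was seen, among these 5 gene models, in Ro04_G00231 alone.

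Ro03_G33069 had a similar setting. Its nearest gene model by position, Ro03_G13410 at a distance of 4.25 kb, had a mean of 539 ± 36.9 in ‘Heritage’, against 498 ± 138 in ‘Wakefield’ (SD, n = 3 each; log2FC 0.15, limma, adjusted p = 0.633). Ro03_G13411, which is matched to a potassium channel of the KCO family, and Ro03_G13406 also did not pass (log2FC values 0.49 and 0.13, limma, adjusted p = 0.0905 and 0.717). Ro03_G13405 was higher, with 473, 514 and 531 in ‘Heritage’ and 372, 404 and 386 in ‘Wakefield’ (log2FC 0.38, limma, adjusted p = 0.0303). It did not pass without any one of the 6 libraries (adjusted p = 0.0525 to 0.117). Of the 8 positioned neighbours of the 2 gene models, 2 were higher and none was lower in limma (4 higher and none lower at an unadjusted p under 0.05), and edgeR and DESeq2 each called 3 higher and none lower.

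For the other gene models, running numbers stood in for position. Where positions were held, gene models at most 2 numbers apart lay a median of 8978 bp from each other, and 92.1% of such pairs were within 50 kb. This check pooled both runs of numbers. The later run held 314 of the 1998 positioned gene models but 15 of the 32. In the later run, Ro03_G33070 and Ro03_G33071 lay 215 and 225 kb from Ro03_G33069. Closeness by number was not checked for the later run alone, so neighbours there may not be near in position. Neighbours in this sense (at most 2 numbers away on the same chromosome) were found in the table for 26 of the 32 gene models. Of these 48 neighbours, 42 reached the filter for testing. Their difference between the cultivars was not used by the rule, although Ro07_G11529 among them was chosen by the rule with the cultivars exchanged. The difference was tested with limma over all 17898 gene models with at least 10 normalized counts in 3 or more libraries.

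Neighbours were more often called than gene models as a whole. At an adjusted p under 0.05 from limma, 16 of the 42 were higher in ‘Heritage’ and 7 were lower, or 54.8%, against 33.5% of all gene models tested (16% higher and 17.5% lower). With the thresholds that the study set for DEGs (a log2FC above 1 or below -1 and 0.01 for the adjusted p), 10 were higher and 3 lower, or 31.0%, against 9.62% (4.45% higher and 5.17% lower). The median size of the log2FC was 0.78 among neighbours and 0.38 among all gene models tested. At a mean of at least 50 normalized counts over the 6 libraries, 13 of 30 neighbours were called (43.3%), against 32.9% of all gene models at that level. Below 50, 10 of 12 were called (83.3%), against 36.0%. The filter can be passed through the libraries of 1 cultivar alone, while neighbours low in both cultivars were left untested. Ro03_G23871 and Ro07_G23202 passed through ‘Heritage’ alone and Ro04_G36824 through ‘Wakefield’ alone. At low levels this favours a call, among neighbours and among all gene models, so the share below 50 is given as a description. The share was 48.1% of 104 at a distance of up to 5 numbers, with 26 higher and 24 lower, so that higher and lower calls were then similar in number. Whether adjacent gene models share a transcript or its reads was not tested. For the 49 counterparts read only in ‘Wakefield’ the directions were exchanged: of 49 neighbours tested, 7 were higher and 17 were lower in ‘Heritage’. The 7 higher included Ro07_G11531, which the rule itself had chosen. The 7 lower neighbours of the gene models read only in ‘Heritage’ included Ro07_G11529, chosen by the rule with the cultivars exchanged. The direction of both was fixed by these rules, so neither call is a separate test. Whether the 2 sets of neighbours differ was not tested.

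**Figure D4:**
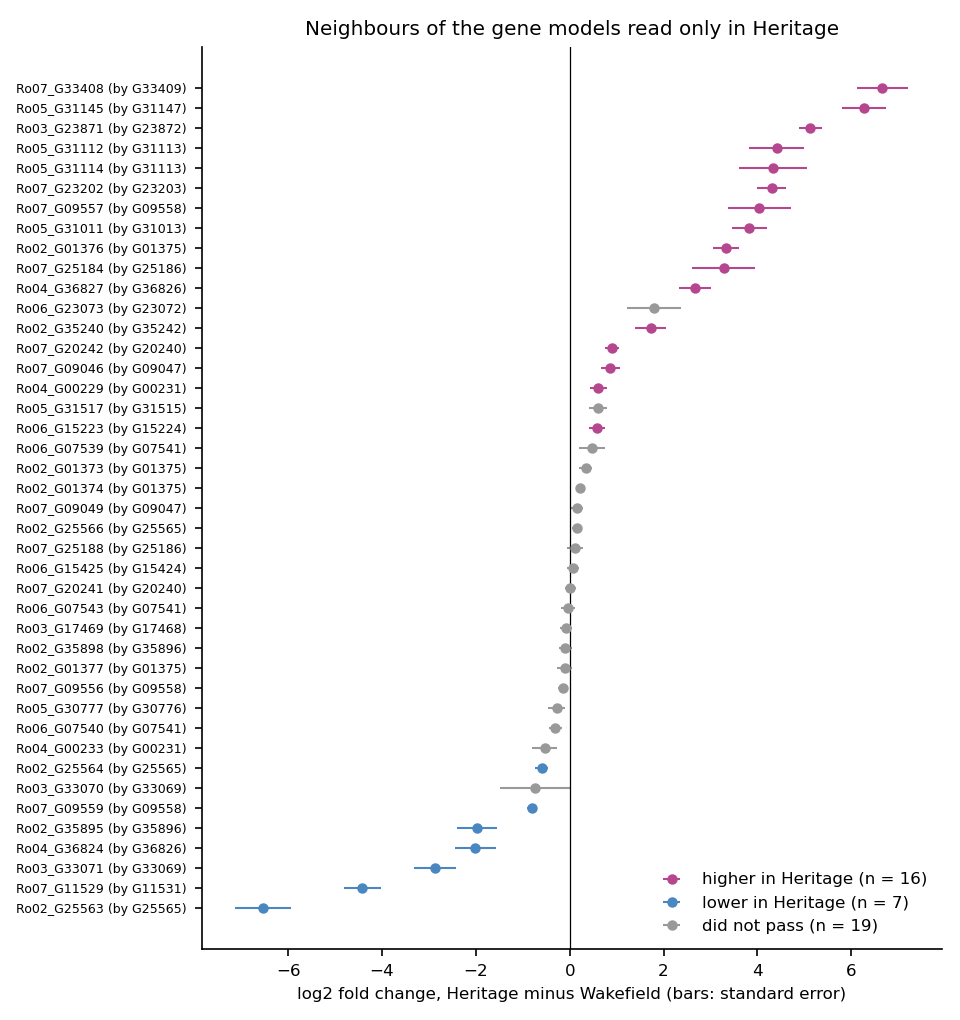
Log2FC (‘Heritage’ minus ‘Wakefield’, bars show the standard error from limma) of the 42 tested neighbours at most 2 gene numbers from a gene model read only in ‘Heritage’, which is named in brackets. The 16 higher and 7 lower neighbours span 6.67 to -6.53, and 19 did not pass at an adjusted p under 0.05.

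Among the neighbours that were higher in ‘Heritage’, the 3 with the largest log2FC were themselves nearly unread in ‘Wakefield’. Ro07_G33408, next to Ro07_G33409, had 151, 160 and 169 normalized counts in ‘Heritage’ and 0, 0 and 2.97 in ‘Wakefield’ libraries 59, 60 and 61 (log2FC 6.67, standard error 0.55, limma, adjusted p = 0.00117). It lay far above Ro07_G33409 itself, whose highest value was 40.9, and missed the rule by 4 reads. Ro05_G31145, close to Ro05_G31147, had 195, 144 and 100 in ‘Heritage’ and 0.939, 0 and 2.23 in ‘Wakefield’ (log2FC 6.27, standard error 0.47, limma, adjusted p = 8.96e-04). Ro03_G23871, next to Ro03_G23872, had 40.8, 39.1 and 43.8 in ‘Heritage’ and a single ‘Wakefield’ read, in library 61 (log2FC 5.13, limma, adjusted p = 1.75e-04). The log2FC values of such gene models depend on the pseudocount of 1. They also reached the filter for testing through the ‘Heritage’ libraries alone, which limits what their calls show. Ro07_G23202, beside Ro07_G23203, and Ro05_G31011, close to Ro05_G31013, had 1 and 2 ‘Wakefield’ reads and were also higher (log2FC values 4.31 and 3.83, limma, adjusted p = 7.99e-04 and 0.00188).

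Other neighbours were read in both cultivars and were still much higher in ‘Heritage’. Ro02_G01376, next to Ro02_G01375, had 3382, 2444 and 1652 in ‘Heritage’ and 282, 226 and 212 in ‘Wakefield’ (log2FC 3.32, standard error 0.28, limma, adjusted p = 0.00119). The gene models beyond it and on the other side, Ro02_G01377 and Ro02_G01374, did not pass (limma, adjusted p = 0.607 and 0.116). Ro04_G36827, next to Ro04_G36826, had 202, 220 and 147 in ‘Heritage’ and 47.9, 20.2 and 23.8 in ‘Wakefield’ (log2FC 2.67, limma, adjusted p = 0.00405). On the other side of Ro04_G36826, Ro04_G36824 was lower, with 7.32, 7.27 and 1.90 against 27.2, 21.8 and 19.3 (log2FC -2.01, limma, adjusted p = 0.0187, and 0.0524 without ‘Wakefield’ library 60).

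Neighbours could also be lower. Ro07_G11529, which is 2 numbers from Ro07_G11531, had 0 in every ‘Heritage’ library and 13.2, 40.4 and 15.6 in ‘Wakefield’, at least 23.9-fold lower in ‘Heritage’ against a floor of 3 reads over its libraries. Ro07_G11529 and Ro07_G11531 are therefore read in opposite cultivars. Ro07_G11526, further along, also had 0 in each ‘Heritage’ library and 24.4, 20.2 and 4.46 in ‘Wakefield’, and Ro07_G11534 had 1 read in each ‘Heritage’ library and 20.7, 1.56 and 8.91 in ‘Wakefield’. Neither of these 2 reached the filter for testing. Another opposed pair, Ro03_G32746 (37.7, 18.2 and 19.0 in ‘Heritage’) and Ro03_G32742 (19.7, 29.5 and 11.1 in ‘Wakefield’), was 4 numbers apart. Ro03_G33071, matched to the transporter ABCB9 and 2 numbers from Ro03_G33069, was lower too, with 3.14, 4.54 and 5.71 in ‘Heritage’ and 51.7, 57.5 and 18.6 in ‘Wakefield’ (log2FC -2.87, limma, adjusted p = 0.00719). By position it lies 225 kb from Ro03_G33069. Ro03_G33070, 1 number from Ro03_G33069, lies 215 kb from that gene model. Near numbers thus did not mean near places here.

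Around Ro02_G25565 (35.6, 23.6 and 28.6 in ‘Heritage’) calls went both ways within a few gene numbers. Ro02_G25563 had 2.09, 0 and 0 in ‘Heritage’ and 162, 212 and 69.8 in ‘Wakefield’ (log2FC -6.53, standard error 0.60, limma, adjusted p = 0.00155), and Ro02_G25562 was lower as well (log2FC -1.89, limma, adjusted p = 0.00487). Directly before Ro02_G25565, Ro02_G25564 was lower, with 313, 247 and 263 against 434, 362 and 448 (log2FC -0.60, limma, adjusted p = 0.0245). This call was lost without any one of libraries 59, 61, 63 and 64 (limma, adjusted p = 0.0570 to 0.0942). Ro02_G25566, directly after Ro02_G25565, had 1253, 1172 and 1158 in ‘Heritage’ and 1154, 1040 and 1020 in ‘Wakefield’ and did not pass (limma, adjusted p = 0.264). Ro02_G25568 was higher, with 448, 396 and 382 against 163, 138 and 151 (log2FC 1.43, limma, adjusted p = 0.00109).

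In other places, gene models with consecutive or near numbers were read mainly in ‘Heritage’ together. Ro05_G30775 and Ro05_G30776 carry consecutive numbers and are the only 2 of the 32 within 10 numbers of each other. They had 28.3, 31.8 and 28.6 and 22.0, 22.7 and 18.1 normalized counts, and the next gene model, Ro05_G30777, was read in both cultivars (132 in ‘Heritage’ and 163 in ‘Wakefield’ on average, limma, adjusted p = 0.283). Ro05_G31113 stood between Ro05_G31112, with 1443, 593 and 407 in ‘Heritage’ against 57.3, 18.7 and 30.4 in ‘Wakefield’ (log2FC 4.41, standard error 0.58, limma, adjusted p = 0.00431), and Ro05_G31114, with 54.4, 35.4 and 18.1 against 3.76, 0 and 0 (log2FC 4.33, standard error 0.72, limma, adjusted p = 0.00833). All 3 of these were highest in library 62 and lowest in library 64, so that the unevenness of Ro05_G31113 among ‘Heritage’ libraries was shared by both neighbours. Ro07_G25186 followed Ro07_G25184 (83.7, 72.7 and 100 in ‘Heritage’ against 1.88, 14.0 and 14.9 in ‘Wakefield’, log2FC 3.28, limma, adjusted p = 0.0159) and Ro07_G25185 (16.7, 6.36 and 23.8 against 1 ‘Wakefield’ read). All 3 were highest in library 64. The call of Ro07_G25184 was lost without any one ‘Heritage’ library (adjusted p = 0.0523 to 0.0568). Ro07_G25188, next in the row, did not pass, with 634 in ‘Heritage’ and 587 in ‘Wakefield’ on average (limma, adjusted p = 0.642).

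**Figure D5:**
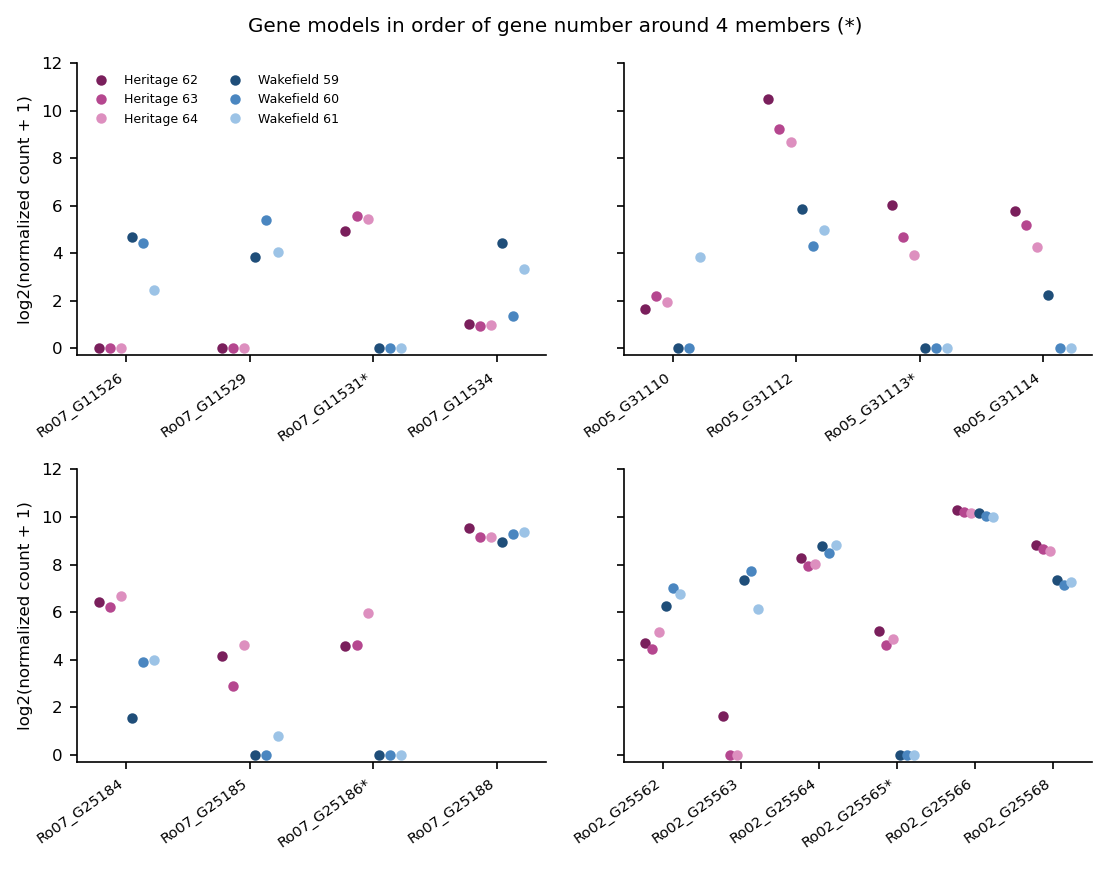
Log2(normalized count + 1) in each library for gene models in order of their numbers around Ro07_G11531, Ro05_G31113, Ro07_G25186 and Ro02_G25565 (each marked with an asterisk); ‘Heritage’ libraries stand left of ‘Wakefield’ libraries at each gene model. Ro05_G31112 and Ro05_G31114 are raised in ‘Heritage’ along with Ro05_G31113, while Ro07_G11529 and Ro02_G25563 are at or near 0 in ‘Heritage’.

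Beside Ro07_G20240 (13.6, 16.4 and 15.2 in ‘Heritage’), the nearer neighbour Ro07_G20241 did not pass, with a mean of 4354 in ‘Heritage’ and 4321 in ‘Wakefield’ (limma, adjusted p = 0.943). Ro07_G20242, 2 numbers away, was higher, with 164, 151 and 182 in ‘Heritage’ and 93.9, 99.5 and 74.3 in ‘Wakefield’ (log2FC 0.89, limma, adjusted p = 0.00839). Beside Ro06_G07541, none of the 3 neighbours tested passed (limma, adjusted p = 0.128 to 0.879). Beside Ro06_G23072, the most abundant of the 32, Ro06_G23073 had 182, 171 and 168 in ‘Heritage’ and 106, 57.5 and 19.3 in ‘Wakefield’, and its log2FC of 1.80 did not pass in limma (adjusted p = 0.0596) but did in edgeR (adjusted p = 0.0485). Among the 25 gene models of the set with a tested neighbour, 19 had at least 1 that was called, 15 had one that was higher and 6 had one that was lower.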

How the data were processed

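The authors trimmed the reads (Trimmomatic), removed ribosomal RNA (SortMeRNA), aligned with STAR to the black raspberry gene models and used DESeq2; the sources used here name no versions and neither a read counter nor its strand option. As deposited, each signal value is a read count scaled by a library's size factor. The authors also deposited a mean, a log2 fold change, its error and test score, and p-values, which were not used. In every library 100% of values were whole multiples of 1 read (tolerance 0.001 of a read), which gave the recovered reads. In 2 cases a row stands for joined gene models.

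The members were counted by the rule stated in the report. The main test was limma 3.58.1 (R 4.3.3) on log2(value + 1) over gene models with at least 10 in at least 3 libraries, with Benjamini-Hochberg adjustment, because the values are normalized. The alternatives were edgeR 4.0.16 and DESeq2 1.42.0 on recovered reads, other filters, pseudocounts and thresholds, and each library left out in turn (filter then in at least 2 libraries). Tests were tried on simulated counts. Positions, orthologues and descriptions come from the part of the study's interval table used here.

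The members and lists were chosen with earlier results of these data known. Named are the positioned members with their 2 nearest gene models on each side and copies of the same orthologue, the 10 most abundant members, the 5 with the largest and the 5 with the smallest CV, the gene models next to the threshold, members in runs or next to gene models of the other cultivar, and the neighbours by number with the largest called changes, at most 3 in each direction. Other neighbours named were chosen after their values were seen. Of the keyword lists, 5 of 9 leucine-rich repeat kinases tested were lower and none higher in ‘Heritage’. The list held 10, and Ro04_G36138, which did not reach the filter, went the other way. It had 14.6, 9.08 and 10.5 normalized counts in ‘Heritage’ libraries 62, 63 and 64 and 0 in each ‘Wakefield’ library. Among disease resistance gene models, 2 of 2 were higher, and of 168 with no orthologue 25 were higher and 19 lower (limma, adjusted p under 0.05). The 25 included Ro03_G33069, which the rule had chosen, and the 19 included Ro03_G05913, chosen by the rule with the cultivars exchanged. For these the direction was fixed in advance. The shares among the 17898 tested were 16% higher and 17.5% lower. The kinase list went by words in the descriptions and held gene models of LG4 only, so kinases named by a symbol alone could be missed. Ro03_G13423 on LG3, described as FLS2, was outside that list and was higher (log2FC 2.39, limma, adjusted p = 0.0444). This call was lost without any one ‘Heritage’ library (limma, adjusted p = 0.0946 to 0.125). The list calls were fragile too. Each of the 5 lower kinases lost its call without ‘Heritage’ library 63 (limma, adjusted p = 0.0608 to 0.126). The disease resistance gene model Ro04_G36305 lost its call without any one ‘Heritage’ library (limma, adjusted p = 0.0872 to 0.102).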

Additional observations from a re-analysis of the deposited data

How the results depend on the processing

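The number of gene models read only in ‘Heritage’ depends on where the rule is set. It was 51 with a minimum of 5 and 14 with a minimum of 20 in place of 10, 58 with at most 1 read and 81 with at most 3 reads over the ‘Wakefield’ libraries, and 35 to 82 with a library left out. The number read only in ‘Wakefield’ was 24 with a minimum of 20, 74 with at most 1 and 100 with at most 3 ‘Heritage’ reads, and 51 to 76 with a library left out. The median ‘Heritage’ mean of the members was 22.2 to 26.3 without 1 library.

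Over all gene models, limma called 1331 to 2775 higher and 1737 to 3009 lower with a library left out (1496 and 2011 without ‘Heritage’ library 62, 1331 and 1737 without 63, and 1879 higher without 64), and 1018 and 1329 at an adjusted p under 0.01. Neighbours numbered 12 to 16 higher and 5 to 7 lower with a library left out. Lower neighbours were 3 with a filter of at least 50 and 4 at an adjusted p under 0.01. With neighbours at most 1 number away, 10 were higher and 3 lower, with 5 numbers 26 and 24. In alternatives chosen after seeing the data, neighbours at most 2 table rows away gave 30 and 27 (52.8% of 108), and those with a mean of at least 50 gave 10 and 3; these count other sets of gene models. Of positioned neighbours, 0 to 1 were higher without 1 library, and with 5 on each side 1 was lower. In 206 refits of 15 single named gene models, 12 calls were lost and 4 gained. The sign of the log2FC turned in 4 refits, none of them called: with a library left out, the log2FC was -0.13 to 0.35 for Ro03_G13406, -0.10 to 0.31 for Ro03_G13410 and -0.14 to 0.18 for Ro04_G36136. Each was lowest without ‘Wakefield’ library 61, and Ro04_G36136 was also at -0.05 without ‘Heritage’ library 62; the cause was not tested in any of these cases. At these depths a gene model under 3 reads per cultivar is not separable from one with no transcript. No paired analysis was possible because the libraries of the cultivars share no numbers.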

Other observations

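Among the positioned gene models at 0 in every ‘Wakefield’ library, 4 stayed under the minimum of 10 in some ‘Heritage’ library. Ro03_G05912, at 41745361 bp of LG3, had 41.9, 22.7 and 7.62 normalized counts in ‘Heritage’ libraries 62, 63 and 64. It lies 6.03 kb from Ro03_G05913, which had 0 in each ‘Heritage’ library and 72.3, 62.2 and 17.1 in ‘Wakefield’, so that 2 gene models next to each other were read in opposite cultivars. Ro04_G36138, a leucine-rich repeat receptor-like kinase gene model at 1991995 bp of LG4 that is matched to AT4G08850, had 14.6, 9.08 and 10.5. Ro04_G00272 and Ro04_G00339 had means of 7.78 and 5.62 in ‘Heritage’. These gene models were chosen after their values were seen, and no test of the difference between the cultivars is given for the 4, since they were chosen for it.

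Several gene models read only in ‘Wakefield’ carried close but not consecutive numbers on chromosome 7, where no positions were held. Ro07_G34306, Ro07_G34308, Ro07_G34310 and Ro07_G34314 lie within 8 numbers and had means of 59.2, 97.7, 62.5 and 30.4 normalized counts in ‘Wakefield’, with 0 in every ‘Heritage’ library. Of the gene models between them, Ro07_G34309, Ro07_G34311 and Ro07_G34313 had means of 0.666, 3.53 and 0.620 in ‘Heritage’ and of 26.8, 109 and 115 in ‘Wakefield’. Ro07_G34307 and Ro07_G34312 stood the other way, with means of 7.38 and 8.93 in ‘Heritage’ and of 1.12 and 1.68 in ‘Wakefield’.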
